A study of Mus musculus with 8 samples.

Results

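The MiT/TFE family of transcription factors comprises Tfe3, Tfeb, Mitf and Tfec. These 4 genes were taken by symbol from a table of 26062 genes, and their levels are described in microglia of the lateral geniculate nucleus (LGN), where the axons of retinal ganglion cells end in the thalamus. All groups were wild type C57BL/6J male mice of 2 to 3 months. There were 2 libraries from uninjured mice, 3 from mice whose optic nerves had both been crushed 1 day earlier, and 3 from mice 3 days after the same injury. Cells were bound to magnetic beads against CD11b, a surface integrin that other myeloid cells also carry. Whether each library holds 1 animal or pooled animals is not stated, so p-values reflect the spread among libraries alone, and that spread could be technical. The family was selected on the levels and fold changes of its members in these libraries, which are therefore given as a description. Calls on them from the fits across all genes are counted once, and nothing is supported with them.

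MiT/TFE proteins carry a basic helix-loop-helix leucine zipper and bind, as homodimers or as dimers with each other, to E-box DNA words such as CACGTG. In well-fed cells the mTORC1 kinase, brought to the lysosome by Rag GTPases, phosphorylates TFEB and TFE3, and 14-3-3 proteins then hold them in the cytoplasm. Starvation or lysosomal damage releases them, calcineurin removes the phosphates, and in the nucleus they switch on genes of lysosome formation and autophagy. Mitf is best known as the master regulator of pigment cells and also acts in osteoclasts and mast cells. Tfec is expressed mainly in cells of the macrophage lineage. Because these proteins are controlled largely by where they sit in the cell, an RNA level does not report their activity.

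The E-box is shown here in promoters of genes that the family is known to act on, because the later results turn on such genes. Sequences are RefSeq promoter windows of the GRCm38.p6 build, from 250 bases before to 50 bases after a transcription start, written 5′ to 3′ on the gene's strand. Capitals mark CACGTG on either strand, including a T that precedes it to form TCACGTG. They also mark the related word TCATGTG wherever it occurs. Ctsd and Naglu were higher 3 days after crush than without injury, Clcn7 and Fnip1 were lower at 3 days than at 1 day, and Lamp1, a lysosomal membrane protein, has 4 copies of CACGTG and was not called by edgeR.
Ctsd, chr7:142387778-142388077, minus strand: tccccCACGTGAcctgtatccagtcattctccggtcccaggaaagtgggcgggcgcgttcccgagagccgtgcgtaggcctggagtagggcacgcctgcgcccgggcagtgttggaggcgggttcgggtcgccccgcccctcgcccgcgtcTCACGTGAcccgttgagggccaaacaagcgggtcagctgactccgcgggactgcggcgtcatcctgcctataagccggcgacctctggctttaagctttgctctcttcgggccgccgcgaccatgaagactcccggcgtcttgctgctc
Naglu, chr11:101069844-101070143, plus strand: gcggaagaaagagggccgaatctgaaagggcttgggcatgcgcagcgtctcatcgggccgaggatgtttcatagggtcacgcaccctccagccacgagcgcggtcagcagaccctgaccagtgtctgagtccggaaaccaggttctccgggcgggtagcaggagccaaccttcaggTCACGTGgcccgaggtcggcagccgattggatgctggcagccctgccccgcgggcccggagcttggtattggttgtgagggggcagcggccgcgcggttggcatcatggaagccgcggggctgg
Clcn7, chr17:25133141-25133440, plus strand: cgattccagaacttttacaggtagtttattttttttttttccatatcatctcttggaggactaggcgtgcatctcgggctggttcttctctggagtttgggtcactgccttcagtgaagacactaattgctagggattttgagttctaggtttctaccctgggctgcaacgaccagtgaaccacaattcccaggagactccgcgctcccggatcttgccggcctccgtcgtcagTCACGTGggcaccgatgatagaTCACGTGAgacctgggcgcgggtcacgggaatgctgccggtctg
Fnip1, chr11:54437929-54438228, plus strand: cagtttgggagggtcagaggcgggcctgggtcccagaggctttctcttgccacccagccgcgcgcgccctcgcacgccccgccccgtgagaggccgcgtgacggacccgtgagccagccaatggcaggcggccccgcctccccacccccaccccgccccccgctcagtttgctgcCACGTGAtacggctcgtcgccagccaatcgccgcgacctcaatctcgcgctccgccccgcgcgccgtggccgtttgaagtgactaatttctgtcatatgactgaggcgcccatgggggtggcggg
Lamp1, chr8:13158911-13159210, plus strand: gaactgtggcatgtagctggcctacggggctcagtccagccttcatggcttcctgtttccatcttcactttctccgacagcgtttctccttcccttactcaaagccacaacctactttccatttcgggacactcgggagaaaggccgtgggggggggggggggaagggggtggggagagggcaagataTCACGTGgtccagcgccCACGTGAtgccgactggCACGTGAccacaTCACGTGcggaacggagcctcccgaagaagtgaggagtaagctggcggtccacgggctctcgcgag

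RefSeq windows were matched for 70 of 91 listed target genes. CACGTG, which reads the same on both strands, occurred in at least 1 window of 23 of these 70 genes, or 32.9%, against 8.09% of all 27025 genes with a window. In lysosomal targets it occurred in 17 of 35 genes, or 48.6%. The longer word TCACGTG, which contains CACGTG, was in 28.6% of the matched targets and in 4.29% of all genes. TCATGTG, the word found in pigment cell promoters, was in 11.4% of the targets and in 4.31% of all genes. Several listed targets were first recognised in the literature through such words, so these shares are not independent of the choice of genes. Among the targets that passed the test between the times after crush, CACGTG was in 0 of the 7 matched genes that were higher at 3 days and in 2 of the 10 that were lower. At 3 days against uninjured mice it was in 2 of the 6 matched targets that rose, Ctsd and Naglu, and in 0 of the 2 that fell. None of the 9 windows of the family's own genes held CACGTG or TCATGTG. The single Tfec window held GAGGAA, a core word of the macrophage factor PU.1, once on the opposite strand, and the word occurred in 31.3% of all genes. The window is shown, with that word in capitals, because Tfec is the member with the largest fold.
Tfec, chr6:16898392-16898691, minus strand: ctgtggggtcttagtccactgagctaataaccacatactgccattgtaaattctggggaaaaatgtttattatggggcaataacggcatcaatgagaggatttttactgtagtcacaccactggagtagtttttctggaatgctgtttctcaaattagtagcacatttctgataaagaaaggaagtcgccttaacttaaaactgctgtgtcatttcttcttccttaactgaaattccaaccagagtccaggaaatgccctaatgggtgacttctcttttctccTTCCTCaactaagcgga

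Library totals ran from 12700098 to 17994861 counts, and each library counted as 1 replicate. Genes with a count numbered 22395 and 21663 in uninjured libraries, 18035 to 20220 at 1 day and 20632 to 21044 at 3 days. The mitochondrial share of counts was 22.5% and 21.3% in uninjured mice. It was 13.6%, 21.9% and 13.9% in the 1 day libraries and 22.8%, 28.9% and 30.3% in the 3 day libraries. The microglial genes Tmem119 and P2ry12 averaged 409 CPM or more in every group, where CPM are counts scaled by TMM to a common library size. Of 10 microglial markers tested, 1 rose at 1 day and 2 fell at 3 days against uninjured mice, and 4 fell at 3 days against 1 day, among them Tmem119, P2ry12 and Itgam, which encodes CD11b itself. Cell cycle markers, summed over 6 genes, lay between 1240 and 1965 CPM in the 3 day libraries, at 66.3 CPM or less at 1 day and at 45.4 CPM or less without injury. Choroid plexus and ependymal markers summed to 5509 and 524 CPM in uninjured libraries, to 0.467, 56.7 and 1.05 CPM at 1 day, and to 3564, 622 and 1954 CPM at 3 days. Of the 10 endothelial markers tested, 8 fell at 1 day against uninjured mice and 0 rose. In bulk libraries, fewer cells of a type and less RNA per cell cannot be told apart.

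Tfe3 (ENSMUSG00000000134, chromosome X) had the most counts. Uninjured libraries had 117 and 116 CPM, 1 day libraries 199, 227 and 177 CPM, and 3 day libraries 164, 109.7 and 149.8 CPM. All 1 day libraries lay above both uninjured libraries and above all 3 day libraries. The 3 day libraries surrounded the uninjured pair. Tfe3 averaged 201 ± 25.1 CPM at 1 day (SD, n = 3) and 117 ± 0.965 CPM without injury (SD, n = 2), a fitted 1.72-fold difference (log2 fold change 0.78, SE 0.20). At 3 days it averaged 141 ± 28.1 CPM (SD, n = 3), with a log2 fold change of 0.27 (SE 0.19) against uninjured libraries and −0.51 (SE 0.17) against 1 day libraries. It had 1474 to 2878 counts per library.

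Tfeb (ENSMUSG00000023990, chromosome 17), the factor most closely tied to autophagy, was lowest at 3 days. Uninjured libraries had 20.9 and 24.7 CPM, 1 day libraries 24.5, 17.9 and 28.8 CPM, and 3 day libraries 17.4, 12.7 and 7.66 CPM. The 1 day libraries surrounded the uninjured pair, while every 3 day library lay below all 5 others. The gap to the 1 day group was small, since the highest 3 day library had 17.4 CPM and the lowest 1 day library 17.9 CPM. Tfeb averaged 12.6 ± 4.86 CPM at 3 days (SD, n = 3) and 22.8 ± 2.68 CPM without injury (SD, n = 2). The log2 fold change was −0.86 (SE 0.38). Against the 1 day libraries, at 23.7 ± 5.48 CPM (SD, n = 3), the log2 fold change was −0.91 (SE 0.34). At 1 day it was 0.06 (SE 0.38) against uninjured libraries, and −0.05 with scaling by library size alone.

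Mitf (ENSMUSG00000035158, chromosome 6) had the narrowest range for its level, from 29.3 to 40.3 CPM. Its level was 36.2 and 34.6 CPM in uninjured libraries, 30.5, 29.3 and 38.1 CPM at 1 day, and 33.3, 37.97 and 40.3 CPM at 3 days. The groups overlapped in every pair. Log2 fold changes were −0.12 (SE 0.25) for 1 day against uninjured, 0.07 (SE 0.25) for 3 days against uninjured and 0.19 (SE 0.23) for 3 days against 1 day. The second was −0.09 with scaling by library size alone. Mitf has several promoters whose transcripts differ in their first exons, and RefSeq lists 3 windows for it. Counts per gene do not tell these transcripts apart.

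Tfec (ENSMUSG00000029553, chromosome 6), the macrophage member, had the fewest counts and the largest fold. It had 55 and 31 counts in uninjured libraries, 15, 91 and 79 at 1 day, and 133, 119 and 237 at 3 days. These correspond to 2.94 and 1.60 CPM, to 1.17, 7.30 and 4.87 CPM, and to 8.70, 8.86 and 19.1 CPM. Every 3 day library lay above all 5 others, and 3 day replicate 3 stood highest. The 1 day libraries reached both below and above the uninjured pair. Tfec averaged 12.2 ± 5.97 CPM at 3 days (SD, n = 3) and 2.27 ± 0.948 CPM without injury (SD, n = 2), a fitted 5.37-fold difference (log2 fold change 2.43, SE 0.76). Of all tested genes, 4.26% had a larger log2 fold change in size in that comparison. Against the 1 day libraries, at 4.45 ± 3.09 CPM (SD, n = 3), the log2 fold change was 1.46 (SE 0.63), and at 1 day it was 0.97 (SE 0.72) against uninjured libraries. The 1 day value was 0.37 without 1 day replicate 2, and reached 1.47 without control replicate 1. Without 3 day replicate 3 the log2 fold change at 3 days was 1.90 against uninjured and 0.99 against 1 day libraries. The cell cycle markers were high in the same 3 day libraries, and both their sum and the mitochondrial share were highest in 3 day replicate 3. Their part in the level of Tfec was not tested.

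**Figure D1:**
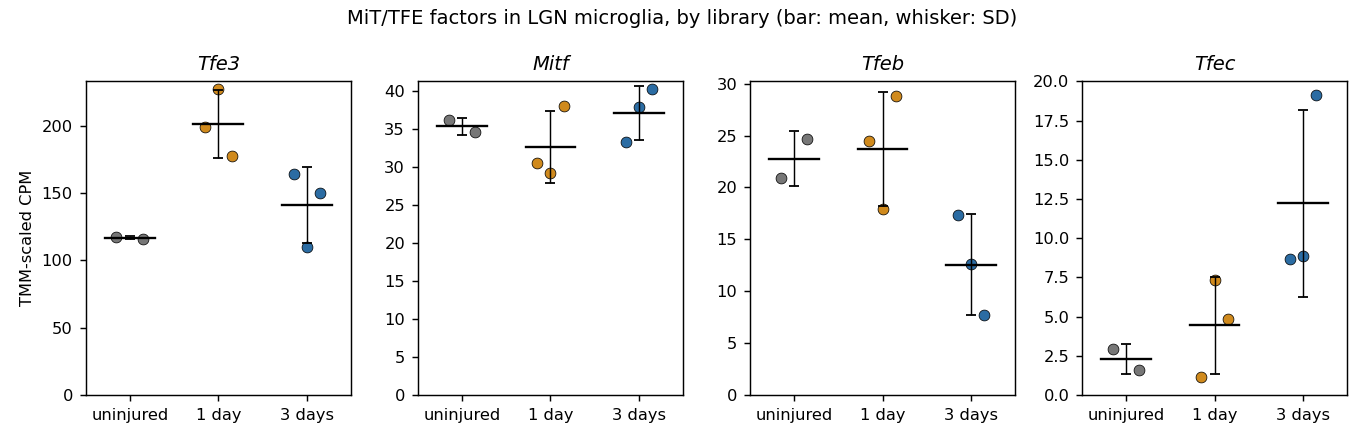
TMM-scaled CPM (y axis, from 0) of each MiT/TFE factor in uninjured libraries and in libraries from 1 day and 3 days after optic nerve crush (x axis). Points are libraries, bars are group means and whiskers are SD. Tfe3 is highest at 1 day, between 177 and 227 CPM, Tfeb lowest at 3 days, between 7.66 and 17.4 CPM, and Tfec highest at 3 days, between 8.70 and 19.1 CPM.

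The overlap of libraries between groups is given here for the 4 members as a description, beside that of all genes. At 1 day against uninjured, the libraries of 1 of 4 members did not overlap, Tfe3 being higher, where 29.3% of all 17390 tested genes had no overlap, 14.3% as higher and 15% as lower. For 3 days against uninjured this held for 2 of 4, Tfec higher and Tfeb lower, with 39.4% of all genes, 20.1% as higher and 19.3% as lower. It held for 3 of 4 at 3 days against 1 day, with Tfec higher and Tfeb and Tfe3 lower, and for 29.8% of all genes, 16.1% as higher and 13.6% as lower. The edgeR quasi-likelihood test across all genes, with Benjamini-Hochberg adjustment and calls at an adjusted p under 0.05, called 0 of the 4 in each of the 3 comparisons. It called 1.77%, 3.47% and 11% of all genes at 1 day against uninjured, at 3 days against uninjured and at 3 days against 1 day. At an unadjusted p under 0.05 the members numbered 1, 2 and 3 in that order, and no share of all genes is given at that threshold. DESeq2 called 1, 1 and 2 members, beside 881 of 17892, 1375 of 13889 and 3099 of 18398 genes. Limma-voom called 1, 0 and 0 members, beside 351, 806 and 1687 of 17390 genes. Nothing is read from these counts, since the members were chosen with the values known. The comparisons share libraries: both 1 day and 3 days were set against the same uninjured pair.

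Levels of different genes were compared per kilobase of annotated exon. Without injury the order was Tfe3 at 12.6 ± 0.104, Mitf at 5.72 ± 0.183, Tfeb at 4.02 ± 0.472 and Tfec at 0.405 ± 0.170 CPM per kilobase (SD, n = 2). At 1 day Tfe3 stood at 21.7 ± 2.71, Mitf at 5.27 ± 0.767, Tfeb at 4.18 ± 0.966 and Tfec at 0.795 ± 0.552 CPM per kilobase (SD, n = 3). The spreads of Mitf and Tfeb overlapped there, while Mitf was above Tfeb within each of the 8 libraries. At 3 days Tfe3 stood at 15.2 ± 3.03, Mitf at 6.00 ± 0.574, Tfeb at 2.22 ± 0.858 and Tfec at 2.19 ± 1.07 CPM per kilobase (SD, n = 3), and Tfeb and Tfec did not differ beyond their spread. Per kilobase of the longest coding sequence the last pair changed places, with Tfec at 12.9 ± 6.28 and Tfeb at 7.85 ± 3.04. Linear amplification before library construction can favour 3′ ends, which limits any comparison between genes.

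Tfe3 made up at least 54.4% of the family's CPM per kilobase of exon in every library. Its share was 55.4 ± 0.496% without injury (SD, n = 2), 67.8 ± 5.90% at 1 day and 59.1 ± 4.77% at 3 days (SD, n = 3 each). Tfeb held 17.7 ± 2.06%, 13.2 ± 3.51% and 8.75 ± 3.34% in the same order of groups. Tfec held 1.78 ± 0.747%, 2.44 ± 1.62% and 8.44 ± 3.57%. In 3 day replicate 3, Tfec at 12.5% exceeded Tfeb at 4.93% of the family. The family as a sum had 22.7 and 22.8 CPM per kilobase without injury, 30.9, 33.7 and 31.2 at 1 day, and 27.7, 21.8 and 27.4 at 3 days, so all 1 day libraries lay above the other 5.

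**Figure D2:**
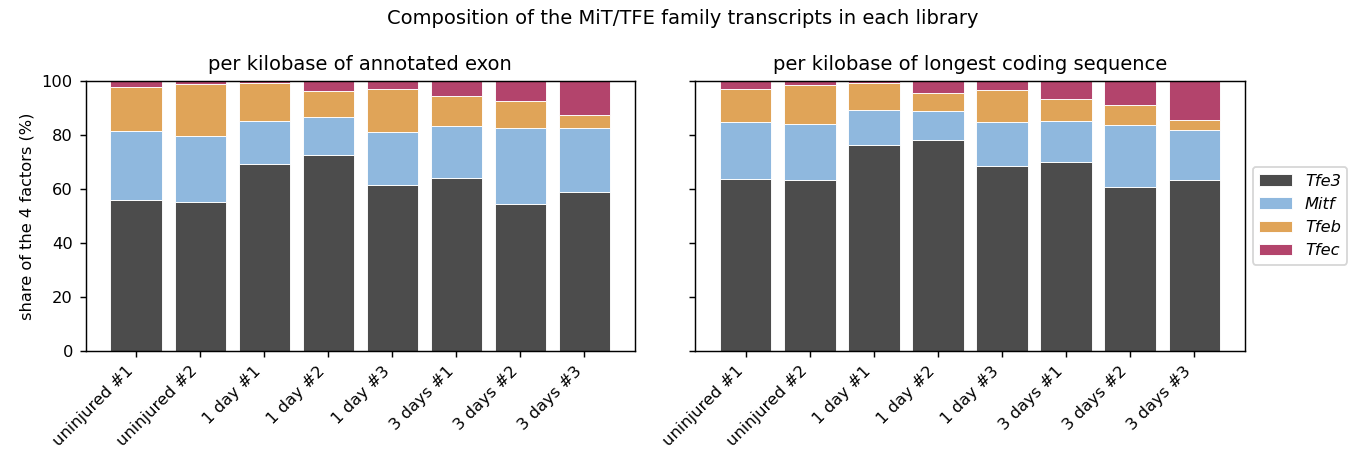
Share of each MiT/TFE factor in the family's CPM per kilobase (y axis, percent) in each library (x axis), per kilobase of annotated exon on the left and per kilobase of the longest coding sequence on the right. Tfe3 is the largest part of every bar, and Tfec grows to between 5.61% and 12.5% in the 3 day libraries on the exon scale.

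The genes most like each member across the 8 libraries were then listed. The measure was Pearson's correlation of log2 CPM over 8 libraries in 3 groups, among 9419 genes averaging 5 CPM or more, and it is given without a p because the libraries share groups and depth. Tfe3 was most like Fnbp1 (r = 0.97), Sema4d (0.97), Ptpre (0.96) and Leng8 (0.96). Tfeb was most like Il7r (0.98), Herc2 (0.97), Rsbn1l (0.97) and Neu1 (0.95). Neu1, the lysosomal sialidase, is also on the list of family targets and had 47.5, 46.5 and 28.6 CPM at 3 days, against 56.7, 55.1 and 64.8 CPM at 1 day. Mitf was most like Mettl2 (0.95), Adal (0.94), Ezh1 (0.93) and Maip1 (0.93). Tfec was most like Fam206a (0.97), Plk4 (0.97), Btbd2 (0.96) and Rps27l (0.96), of which Plk4 is the kinase of centriole duplication. By Spearman's rank correlation 2, 1, 2 and 0 of these sets of 4 were kept for Tfe3, Tfeb, Mitf and Tfec, so the sets depend on the measure. Between members, r was −0.80 for Tfeb and Tfec and −0.63 for Tfe3 and Mitf. It was −0.43 for Tfeb and Mitf, 0.03 for Tfe3 and Tfec, 0.19 for Tfe3 and Tfeb and 0.44 for Mitf and Tfec.

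Mitf also marks pigment and mast cells, so their markers were examined. Tyr and Mlana, which define pigment cells, had no row in the table, and Tyrp1 and Pax3 had counts in 1 uninjured library alone. The 7 pigment cell markers present summed to at most 5.69 CPM in any library. The 6 mast cell markers present summed to between 3.79 and 10.2 CPM, and 2 of them passed the low-count filter. Among them the protease gene Cpa3 stayed at or below 0.267 CPM, Ms4a2 had 67 counts in 1 day replicate 2 and 0 in every other library, and Tpsb2, Tpsab1 and Fcer1a had no row. Oca2, a pigment cell gene, had 0 counts in all 1 day libraries and rose at 3 days against 1 day (adjusted p = 0.0302 by edgeR), at no more than 2.48 CPM. Limma-voom did not call it. Choroid plexus and ependymal markers were low in the same 1 day libraries, and their part in the level of Oca2 was not tested. Mitf was at 29.3 CPM or more in every library.

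Genes known as targets or regulators of the family were not used to choose it, and these were tested across all genes. Their lists came from general knowledge of the family, but were drawn up with earlier results of these data known. Counts on them are therefore not independent of these data. Of 90 target genes tested, 0 rose and 1 fell at 1 day against uninjured mice, 9 rose and 2 fell at 3 days against uninjured mice, and 8 rose and 10 fell at 3 days against 1 day. Among all 17390 genes, 0.61% rose and 1.16% fell in the first comparison, 2.49% rose and 0.983% fell in the second, and 5.24% rose and 5.75% fell in the last. These splits moved with the scaling: by library size alone, 16.5% of the calls at 1 day and 56.5% at 3 days against uninjured mice were higher, where TMM gave 34.4% and 71.7%. For the targets at 3 days against uninjured mice, RLE scaling gave 7 that rose and 6 that fell, and library size alone 6 and 5. The median log2 fold change of the targets was 0.21 at 1 day against uninjured, beside 0.06 for all genes, and 72 of 90 were higher. Microglial markers were higher in the same libraries, with a median of 0.47 and 8 of 10 higher, and summed to between 11284 and 14076 CPM at 1 day, against 7977 and 10402 CPM without injury. Their part in the level of the targets was not tested. At 3 days the median of the targets was 0.13 against uninjured, beside −0.00165 for all genes, and −0.13 against 1 day, beside 0.02. At 1 day 20 targets were higher at an unadjusted p under 0.05 and 3 were lower. No share of all genes is given at that threshold, so nothing is read from these counts. DESeq2 called 3 targets as rising at 1 day, beside 324 of 17892 genes.

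The lysosomal targets gave most of the rises at 3 days against uninjured mice: 7 of 48 rose and 2 fell. The rises were 14.6% of the list, beside 2.49% of all genes. At 1 day none was called by edgeR, beside 1.77% of all genes, and DESeq2 called 1, beside 881 of 17892 genes. At an unadjusted p under 0.05, where no share of all genes is given, 12 were higher. Gusb, a lysosomal glucuronidase, had 342, 375 and 361 CPM at 3 days, against 154 and 148 CPM without injury (log2 fold change 1.25, SE 0.15, adjusted p = 0.000415 by edgeR). The 3 day libraries lay together and far above the uninjured pair. Ctsd, the aspartic protease cathepsin D, had 5688 or more CPM in 3 day libraries and 3579 or less without injury (1.10, SE 0.19, adjusted p = 0.00566). Galns, an enzyme of keratan sulfate breakdown, had 26.3, 26.0 and 38.2 CPM at 3 days, against 5.82 and 4.84 CPM without injury (2.50, SE 0.49, adjusted p = 0.0105). Atp6ap1, an accessory subunit of the proton pump, also rose (1.04, SE 0.21, adjusted p = 0.0146), as did Naglu, a heparan sulfate enzyme, and Ctsb, cathepsin B. The 2 that fell were Ctss, cathepsin S, and Ostm1, the partner subunit of the lysosomal chloride exchanger Clcn7. Ctsb and Gusb stayed called whichever of the 8 libraries was omitted. Ctsd was lost without control replicate 1 (adjusted p = 0.0984), and the other targets of this comparison were each lost without at least 3 of the 8 libraries. Naglu was called in 3 of those 8 fits, and was also lost with RLE scaling, library size alone, no low-count filter or a replicate block.

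Between the times after crush, 4 of 48 lysosomal targets were called higher and 3 lower at 3 days. These calls made up 14.6% of the list, near the 11% of all genes called there. Lipa, the lysosomal acid lipase that frees cholesterol, had 238, 282 and 254 CPM at 3 days, against 175, 149 and 149.6 CPM at 1 day (log2 fold change 0.71, SE 0.15, adjusted p = 0.00682 by edgeR). Clcn7 had 36.4, 36.0 and 37.2 CPM at 3 days, against 65.7, 59.1 and 70.4 CPM at 1 day (−0.83, SE 0.20, adjusted p = 0.0154). Ostm1 fell as well (−1.07, SE 0.24, adjusted p = 0.0115), so both parts of that exchanger were lower at 3 days than at 1 day. The call of Clcn7 was lost when any 1 of the 3 day libraries was left out, and that of Ostm1 without 3 day replicate 1 or 3. Lamp1 was higher at 3 days than without injury by 0.53 (SE 0.16, adjusted p = 0.0992) and was not called by edgeR, though limma-voom called it. Ctsk was at or below 2.34 CPM in every library.

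Of 27 autophagy targets edgeR called 0 against uninjured mice at either time, beside 1.77% of all genes at 1 day and 3.47% at 3 days. At such shares 0 calls in a list of this size is near the rate of all genes. At an unadjusted p under 0.05, where no share of all genes is given, 5 were higher at 1 day and 2 differed in each direction at 3 days. DESeq2 called 0 at 1 day, and at 3 days called Gabarap as higher and Optn as lower, while limma-voom called 0 at both times. Between the times after crush, 4 of the 27 were lower at 3 days and 1 was higher, or 18.5% called beside 11% of all genes. Optn, an autophagy receptor, had 94.7, 77.1 and 63.4 CPM at 3 days, against 177, 157 and 222 CPM at 1 day (log2 fold change −1.24, SE 0.19, adjusted p = 0.00107). The kinase gene Ulk1, which starts autophagy, fell by 0.90 on the log2 scale (SE 0.20, adjusted p = 0.0103) and its paralog Ulk2 by 0.49 (SE 0.14, adjusted p = 0.0377). Vps18, a subunit of the tethers that bring vesicles to lysosomes, fell by 0.75 (SE 0.16, adjusted p = 0.00729). Gabarapl1, of the family of proteins attached to autophagosome membranes, rose by 0.67 (SE 0.20, adjusted p = 0.0452). Sqstm1, the receptor p62, had 474 to 533 CPM at 3 days and 420 to 617 CPM at 1 day, with no call by edgeR. Optn stayed called with each library left out, Ulk1 and Vps18 were lost without 3 day replicate 3, Ulk2 without 5 of the 8 libraries and Gabarapl1 without 7.

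Among macrophage, osteoclast and other targets, Gpnmb and Bcl2 were higher at 3 days than at 1 day. Gpnmb, a transmembrane glycoprotein of phagocytes whose gene MITF and TFE3 drive, had 10.2, 14.1 and 21.5 CPM at 3 days, against 0.389, 2.81 and 5.11 CPM at 1 day (log2 fold change 2.45, SE 0.68, adjusted p = 0.0326 by edgeR). Against the uninjured pair, at 4.17 and 2.94 CPM, it was not called by edgeR (2.10, SE 0.78, adjusted p = 0.181) but was called by DESeq2. The call at 3 days against 1 day was lost when any 1 of the 3 day libraries was left out. Bcl2, the survival protein, had 59.5, 76.2 and 86.2 CPM at 3 days, against 10.05, 21.9 and 20.5 CPM at 1 day (2.08, SE 0.30, adjusted p = 0.000564) and stayed called with each library left out. Cdkn1a, the cell cycle inhibitor p21, rose at 3 days against uninjured mice (0.90, SE 0.23, adjusted p = 0.042) and was lost without 5 of the libraries. Tnfrsf11a, the receptor RANK of osteoclast formation, fell at 3 days against 1 day by 0.85 on the log2 scale (SE 0.17, adjusted p = 0.00634). Acp5 and Atp6v0d2, osteoclast genes, were at or below 13.2 and 8.72 CPM and were not called by edgeR. DESeq2 called Acp5 as higher at 1 day than without injury and as lower at 3 days than at 1 day. Of this list, Oscar did not pass the low-count filter.

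Ppargc1a, a coactivator of mitochondrial genes and a TFEB target, was the target that fell at 1 day. It had 1.01, 1.04 and 2.46 CPM at 1 day, against 36.1 and 8.55 CPM without injury (log2 fold change −3.86, SE 0.72, adjusted p = 0.014 by edgeR), and 34.0, 6.33 and 16.5 CPM at 3 days. The call at 1 day was lost without control replicate 1 and without 1 day replicate 1 or 2 (highest adjusted p = 0.39). Choroid plexus and ependymal markers were low in the same 1 day libraries and highest in control replicate 1, where Ppargc1a was also highest. Their part in the level of Ppargc1a was not tested.

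**Figure D3:**
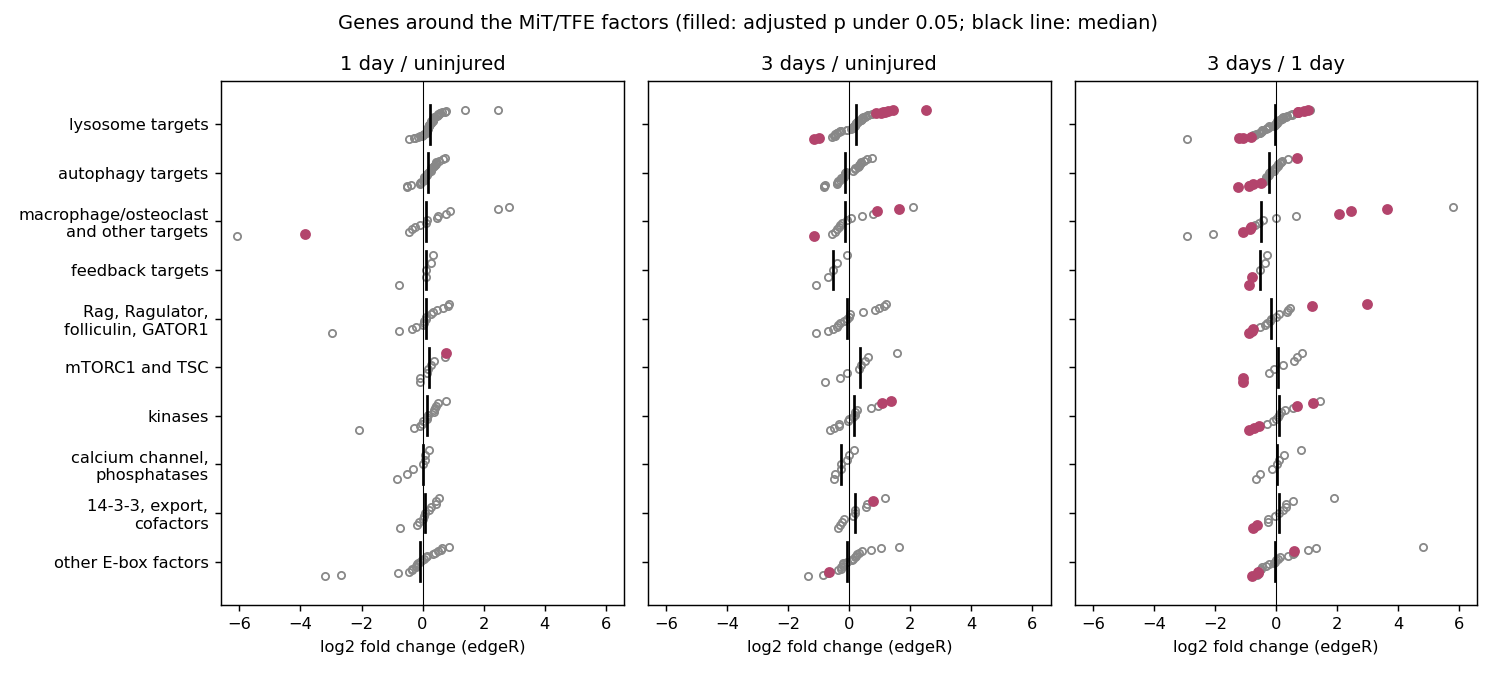
Log2 fold changes fitted by edgeR (x axis) for each tested gene of the target, regulator and E-box factor lists (rows), for 1 day over uninjured, 3 days over uninjured and 3 days over 1 day. Filled points passed an adjusted p under 0.05, open points did not, and black lines are list medians. Filled points are rare at 1 day and lie on both sides of 0 at 3 days over 1 day.

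Regulators of the family were called mostly as lower at 3 days than at 1 day: of 55 tested, 10 fell and 4 rose. Among all genes 5.75% fell and 5.24% rose there. By fitted value 29 of the 55 were higher and 26 lower, so the list as a whole did not lean to lower values. At an unadjusted p under 0.05, where no share of all genes is given, 14 were lower and 7 higher. Flcn and Fnip1, which fell, are counted as both regulators and targets. At 1 day against uninjured 1 rose and 0 fell, beside 0.61% and 1.16% of all genes. At 3 days against uninjured 3 rose and 0 fell, beside 2.49% and 0.983%. The median log2 fold change at 3 days against 1 day was 0.04 for the regulators and 0.02 for all genes. With RLE scaling or library size alone, Flcn and Rragd also fell at 3 days against uninjured mice. Rptor encodes raptor, the mTORC1 subunit that recognises substrates. It had 118, 127 and 106 CPM at 3 days, against 269, 256 and 218 CPM at 1 day (−1.08, SE 0.15, adjusted p = 0.000498 by edgeR), and 134 and 154 CPM without injury. It was the regulator that rose at 1 day against uninjured (0.78, SE 0.17, adjusted p = 0.0336). That rise was lost when any 1 of 7 libraries was left out (highest adjusted p = 0.483), whereas the fall from 1 day stayed called in all 8 such fits. Rheb, the small GTPase that activates mTORC1, fell by 1.07 on the log2 scale at 3 days against 1 day (SE 0.27, adjusted p = 0.0221), but was lost without 3 of the libraries. Mtor itself had 89.0 to 100.6 CPM at 3 days and 69.3 to 88.6 CPM at 1 day, with no call by edgeR.

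Folliculin and its partners are the part of this machinery that directs the mTORC1 signal to TFEB and TFE3, and in turn are family targets. Flcn had 116, 147 and 98.4 CPM at 3 days, against 185, 235 and 204 CPM at 1 day (log2 fold change −0.79, SE 0.17, adjusted p = 0.00893 by edgeR). Fnip1, which binds folliculin, had 177, 195 and 143 CPM at 3 days, against 351, 282 and 310 CPM at 1 day (−0.87, SE 0.16, adjusted p = 0.0029). In both genes every 3 day library lay below every library of the other groups. Fnip1 stayed called with each library left out, and Flcn was lost without 3 day replicate 3 (adjusted p = 0.0625). Fnip2 (−0.35, SE 0.15), Rragc (−0.51) and Rragd (−0.31, SE 0.27) were not called, although all 5 members of this feedback list had a lower fitted value at 3 days than at 1 day. Against uninjured mice Flcn (−0.69, adjusted p = 0.0615) and Rragd (−1.08, adjusted p = 0.0596) lay just outside the threshold at 3 days, and both were called by DESeq2 (adjusted p = 0.0132 and 0.0045). Of the amino acid sensing complexes, Lamtor3 fell at 3 days against 1 day, while Lamtor5 and Nprl2 rose. They were lost without 7, 4 and 3 of the 8 libraries when taken in that order. Nprl2 had 3.47, 5.44 and 3.71 CPM at 3 days, against 0.389, 0.883 and 0.308 CPM at 1 day (2.99, SE 0.75, adjusted p = 0.0203), and 4.27 and 4.07 CPM without injury.

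Kinases and cofactors moved in separate groups. The protein kinase C genes Prkca, Prkcb and Prkcd fell at 3 days against 1 day, and were lost without 5, 7 and 4 of the libraries in that order. The cyclin-dependent kinase genes Cdk4 and Cdk6, whose products can phosphorylate TFEB, rose in the same comparison. Cdk4 had 45.4, 35.7 and 51.1 CPM at 3 days, against 19.9, 18.5 and 18.5 CPM at 1 day (log2 fold change 1.21, SE 0.26, adjusted p = 0.00804 by edgeR), and also rose against uninjured mice (1.37, SE 0.30, adjusted p = 0.0201). The first call was lost without 3 day replicate 3 and the second without 4 of the libraries. Cell cycle markers were high in those libraries, and their part was not tested. The acetyltransferase genes Ep300 and Crebbp, general coactivators, fell by 0.74 (SE 0.14, adjusted p = 0.00331) and 0.63 (SE 0.13, adjusted p = 0.00559) on the log2 scale at 3 days against 1 day, with each library left out as well. Crebbp had 336, 323 and 374 CPM at 3 days, against 529, 540 and 532 CPM at 1 day. Ywhae, the epsilon form of the 14-3-3 proteins, rose at 3 days against uninjured mice (0.77, SE 0.15, adjusted p = 0.012) and was lost without 3 of the libraries. Of the 7 genes of Mcoln1, calcineurin and protein phosphatase 2A, edgeR called 0 in each comparison. It called 1.77%, 3.47% and 11% of all genes at 1 day and 3 days against uninjured and at 3 days against 1 day. By an unadjusted p under 0.05, where no share of all genes is given, 2 were lower at 3 days than at 1 day. In the other comparisons 0 differed at that threshold. The 2 are named next. They were Ppp3ca, the catalytic subunit of calcineurin, and Mcoln1, the lysosomal calcium channel (−0.66, SE 0.21, adjusted p = 0.054), which DESeq2 called.

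**Figure D4:**
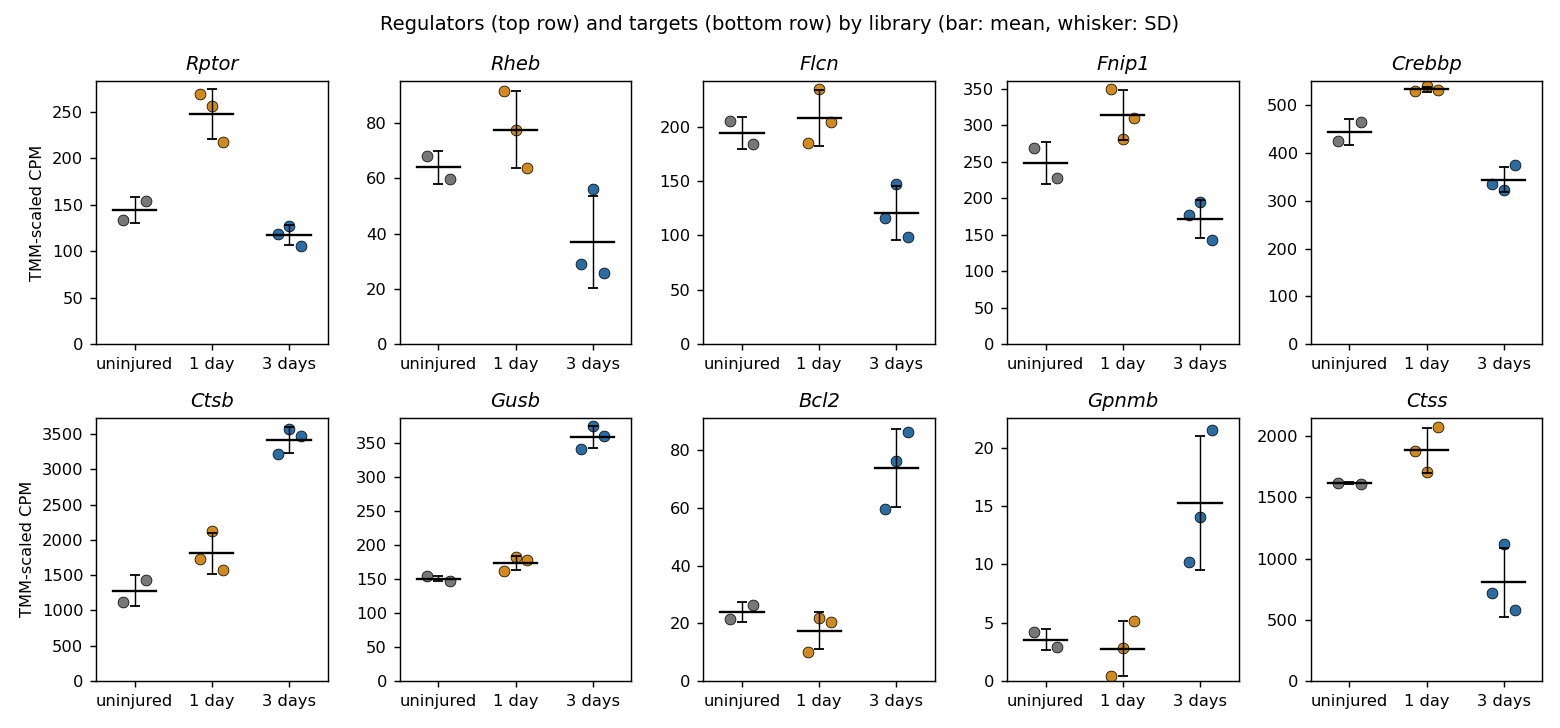
TMM-scaled CPM (y axes, from 0) of 5 regulators, top row, and 5 targets, bottom row, in uninjured libraries and at 1 day and 3 days after crush (x axis). Points are libraries, bars are means and whiskers are SD. Rptor, Flcn, Fnip1 and Crebbp are lowest at 3 days, Bcl2 and Gusb are highest at 3 days, and Ctss falls to between 578 and 1123 CPM at 3 days.

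Other factors that bind E-boxes served as a comparison. Of 21 tested, 0 were called at 1 day against uninjured by edgeR, beside 1.77% of all genes. DESeq2 called 2 there, beside 881 of 17892 genes. At an unadjusted p under 0.05, where no share of all genes is given, 6 differed, of which 4 were higher. In the comparison of 3 days with uninjured 1 fell, and at 3 days against 1 day 3 fell and 1 rose, beside the 11% of all genes called there. Mga, a partner of Max that represses transcription, had 207, 234 and 187 CPM at 3 days, against 384 and 283 CPM without injury (log2 fold change −0.67, SE 0.17, adjusted p = 0.0388), and was lost without 4 of the libraries. Mnt, another repressive Max partner, fell at 3 days against 1 day (−0.80, SE 0.19, adjusted p = 0.0129), as did Mlxip, a glucose-responsive factor (−0.59, SE 0.15, adjusted p = 0.0208). Mnt was lost without 2 of the libraries and Mlxip without 3. Bhlhe40, a stress-responsive repressor, rose (0.60, SE 0.18, adjusted p = 0.0477) and was lost without 7 of the 8 libraries. Usf1 and Usf2, which share the CACGTG word with the family, were at or below 7.47 and 36.7 CPM with no call by edgeR.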

How the data were processed

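The authors deposited raw read counts per Ensembl gene, with 1 column per library. Per the submitters' processing notes, the tools were FastQC, STAR and HTSeq and the build was mm9, with versions, annotation and strand setting not given in the sources used here. Per the labels' protocols, RNA was linearly amplified before library generation. Symbols, exon lengths and overlaps came from GENCODE M21, whose build differs, so gene coordinates are not given. Of 26062 IDs, 25925 had a symbol, and the other IDs took 0.127% of counts. None of the 4 family genes shares exonic bases with another gene. Of the genes named with values, Bcl2, Cdk4, Cdk6, Ctsb, Gabarapl1, Lamp1, Mlxip, Optn, P2ry12, Prkca, Rptor and Sqstm1 share some with a counted gene on the other strand, and Itgam, Ctsd, Ep300 and Usf1 with a gene on the same strand. For Itgam the shared part is 3450 of 5024 exonic bases, with the counted gene Gm49368, so its counts are uncertain.

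The test was edgeR's quasi-likelihood F-test (edgeR 4.0.16, R 4.3.3) after filterByExpr, which kept 17390 genes, and TMM scaling, fitted robustly to the 8 libraries with a mean for each group. SE is the log2 fold change divided by the root of F. The smallest group has 2 libraries, so 1 estimate of the spread was shared.

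Members, lists and tests were chosen with earlier results of these data known. Lists came from general knowledge of the family. Named genes were the members, up to 4 genes of smallest p per list and comparison, all called E-box factors, 16 fixed genes, and the 4 genes most like each member. Some of these genes are not reported here. Alternatives were DESeq2 1.42.0, limma-voom (limma 3.58.1), other scaling, no filter, fits to the groups compared, a replicate block and each library left out. Libraries of a group differed by more than sampling noise (chi-square per degree of freedom 31.4 to 64.8).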

Additional observations from a re-analysis of the deposited data

Results flagged for a closer look

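Effects at the times after crush differed in direction for 3 named genes, where edgeR called both the difference itself and the effect at 1 of the times. Rptor stood above uninjured mice at 1 day (log2 fold change 0.78) and below them at 3 days (−0.30), and its difference for 3 days against 1 day was −1.08. Bcl2 had −0.46 at 1 day and 1.62 at 3 days, a difference of 2.08. Ctss had 0.22 at 1 day and −1.001 at 3 days, a difference of −1.22. Both times were set against the same uninjured pair, and for each gene the effect of smaller size was not called on its own.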

How the results depend on the processing

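Target calls at 1 day against uninjured numbered 1 in the reported fit, 2 with no low-count filter, 4 with DESeq2, 0 with limma-voom and 0 to 2 with a library left out. At 3 days against uninjured they numbered 11 as reported, 18 with DESeq2, 17 in a fit to the groups compared and 2 to 16 with a library left out (2 without control replicate 1, 3 without control replicate 2 or 3 day replicate 3, 6 without 3 day replicate 1). At 3 days against 1 day they numbered 18 as reported and 10 to 22 with a library left out, lowest without 3 day replicate 3. Regulator calls at 1 day against uninjured numbered 1 as reported, 0 with scaling by library size alone or a fit to the groups compared, 2 with DESeq2 or limma-voom and 0 to 1 with a library left out. At 3 days against uninjured they numbered 3 as reported, 5 with RLE scaling, library size alone, no filter or limma-voom, 6 with DESeq2 or a fit to the groups compared, and 1 to 5 with a library left out. At 3 days against 1 day they numbered 14 as reported and 5 to 14 with a library left out, with 9, 8 and 5 without 3 day replicates 1, 2 and 3. The Mitf log2 fold change at 3 days against uninjured was −0.0885 with library size alone, against 0.07 as reported. The other member folds moved by less than the spread between libraries in every alternative run. Tfe3 at 1 day ranged from 0.64 to 0.87 and Tfec at 3 days from 1.90 to 2.92 against uninjured with a library left out. Genes called over the table numbered 308, 604 and 1912 as reported, 881, 1375 and 3099 with DESeq2, 110, 1345 and 1631 in fits to the groups compared, and at least 39, 108 and 747 with a library left out. The share of calls that were higher at 1 day was 34.4% as reported, 16.5% with library size alone, 22.7% in a fit to the groups compared and 53.3% with limma-voom; at 3 days against uninjured it was 71.7%, and 56.5% with library size alone or 59.5% with no filter. Scaling by library size alone moved the median log2 fold change of all genes to −0.06 at 1 day (0.06 with TMM) and to −0.15 at 3 days (−0.00165 with TMM) against uninjured. Same-numbered libraries showed no sign of pairing (correlations of their deviations −0.06 to 0.09). Deviations from means of 2 or 3 libraries cannot settle whether they are paired. With the replicate block, target calls were 1, 8 and 16 and regulator calls 1, 2 and 13 in the order of the comparisons. The cause of these moves was not tested. With 2 or 3 libraries per group, large as well as small changes could be missed. In counts simulated with the spread fitted here, edgeR called 7% to 14% of 2-fold changes and 42% to 50% of 4-fold changes. Unchanged genes made up 9.86%, 17.2% and 5.36% of the simulated calls in the order of the comparisons. Only a small part of the genes, drawn at random over all levels, was changed, in a single run per comparison. Such shares depend on how many genes change, so they need not hold for the real fits.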
